A study of Bos taurus with 18 samples.

Results

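The proteasome genes of cattle were followed through oocyte maturation and the first cleavages. Genes were taken by name: every row of the expression table whose name starts with PSMA, PSMB, PSMC, PSMD, PSME, PSMF or PSMG followed by a digit. The rule found 48 of 21668 genes, and 47 of them are subunits, activators, inhibitors or assembly chaperones of the proteasome. The other one, PSMC3IP, is a meiotic recombination factor that bears the name of a subunit it binds, and it was kept apart. RNA had been sequenced from 3 libraries at each of 6 stages, each library made from a pool of 10 oocytes or embryos. Germinal vesicle (GV) oocytes and metaphase II (MII) oocytes were German Simmental, stripped of their surrounding cells, and collected before and after maturation in culture. Embryos with 4 cells, 8 cells or 16 cells and blastocysts were German Simmental x Brahman, produced by in vitro fertilization with semen of a Zebu bull and grown in culture. No group carried an edited allele or received an agent, so the groups differ by stage. Oocytes and embryos also differ in breed, which cannot be told apart from stage wherever embryos are compared with oocytes. That holds for 4-cell against MII, 4-cell against GV and blastocyst against GV, and for tests over all 6 stages.

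The proteasome is the protease that removes most ubiquitin-tagged proteins from the cytoplasm and the nucleus. Its barrel, the 20S core particle, is built of outer rings of alpha subunits (PSMA genes) that gate the entry and inner rings of beta subunits (PSMB genes), of which PSMB5, PSMB6 and PSMB7 carry the cutting sites. The 19S cap binds the tagged protein, removes the ubiquitin, unfolds the chain with a ring of ATPases (PSMC genes) and feeds it into the core. The eggs of mammals and their early embryos degrade many maternal proteins by this route before and while the embryo starts to transcribe its own genes, which in cattle is known to happen mainly around the 8-cell to 16-cell stage.

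Reads assigned to genes ranged from 2438473 (16-cell replicate 2) to 11971840 (4-cell replicate 2) per library. Expression below is given as a scaled count, the number of reads divided by the size factor of the library, so 1 read was worth 0.562 to 2.82 scaled counts. Such a value is relative to the other genes in the library and holds no correction for gene length, so it compares stages of 1 gene and not genes with each other. Differences and their standard errors (SE) are on the deposited log2-like scale, which compresses low values, and a gene was called changed at a limma adjusted p under 0.05, adjusted over 17138 genes. The labels do not say that the pools of a stage came from separate animals or cultures, so p-values measure the spread between these pools. Summed scaled counts of 10 oocyte markers ran from 70920 to 98680 in the GV pools and from 93.9 to 182 in the blastocysts, where those of 9 trophectoderm markers ran from 30890 to 62850 against 1011 to 7870 at the earlier stages. The blastocyst sum rested mostly on KRT8 (mean 19587), KRT18 (13818) and PTGS2 (10672). CDX2 had a mean of 144 in blastocysts and 145 at the 8-cell stage. TFAP2A and TFAP2C had lower means in blastocysts (32.0 and 3406.5) than in the 16-cell pools (49.9 and 5538). Of the 9 markers, limma called 7 higher and 0 lower in blastocysts than in the 16-cell pools (18.2% and 13.1% of all genes). In these bulk pools, fewer cells of a type and less RNA per cell cannot be told apart.

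Most proteasome genes were lowest in 4-cell or 8-cell embryos. All 14 constitutive core subunits had their lowest mean at one of these stages, as did 10 of 17 cap subunits (58.8%), 31 of all 47 members (66%) and 28.1% of all genes tested, a pattern chosen after the values were seen. The highest mean fell in the 16-cell pools or blastocysts for 37 members (78.7%), against 52% of all genes. The F test over the 6 stages called 40 of 47 members (85.1%), against 67% of all genes. The 7 others were PSMA8, PSMB8, PSMB9, PSMB11, PSMD4, PSMF1 and PSMG3.

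**Figure D1:**
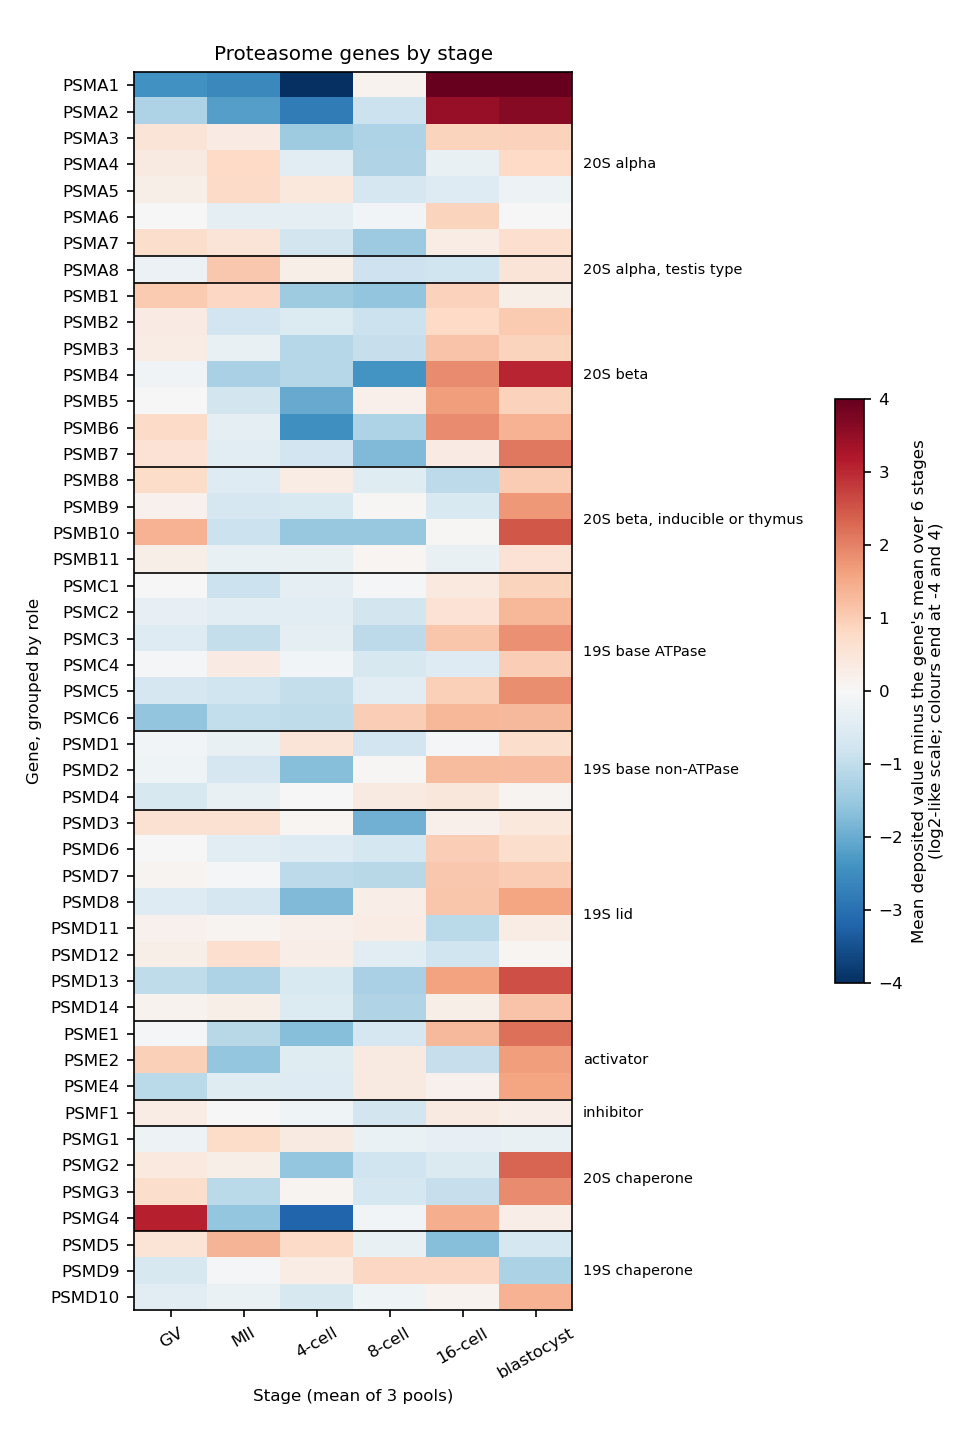
Heat map of the 47 proteasome genes (rows, grouped by role) over the 6 stages (columns, mean of 3 pools); colour is the mean deposited log2-like value minus the gene's own mean over the stages, with colours ending at -4 and 4, which PSMA1 exceeds. Blue cells gather at the 4-cell and 8-cell stages in the alpha and beta rows, and red cells at the 16-cell and blastocyst stages, while PSMG4 is reddest in GV oocytes and PSMD5 in MII oocytes.

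Stage by stage, 1 member was called at maturation. From GV to MII, limma called 0 members higher and 1 lower, against 0.0992% and 0.613% of all genes. At an unadjusted p under 0.05 the counts were 2 and 6, and voom on the recovered reads also called 0 and 1. Array weights gave 2 and 5. Of the 47 differences 14 were above 0 and 33 below. Their median was -0.20, or 0.12 with library medians set equal. From MII to the 4-cell embryo 0 were higher and 5 lower (0.0642% and 0.729% of all genes), or 1 and 12 at an unadjusted p under 0.05 and 0 and 3 by voom. Array weights gave 10 lower, and library medians set equal, which moves the median of all genes by 0.12, gave 2. With medians set equal, 73 of 17138 genes were called lower. The 5 were all core subunits, and the median difference of the 47 members was -0.36 against 0.00 over all genes. Each left-out library lowered the count of 5, to 1 without MII replicate 3, to 3 without 4-cell replicate 3 and to 2 without any one of the other 4. Over the whole span from GV oocyte to 4-cell embryo, a comparison added after the data were seen, 0 members were higher and 8 lower (0.397% and 2.7% of all genes), with 0 and 16 at an unadjusted p under 0.05 and 0 and 8 by voom. The lower count was 4 with library medians set equal, which moves the median of all genes by 0.44, and 14 with array weights. In the first of these fits 246 of all genes were called lower.

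From the 4-cell to the 8-cell embryo 6 members rose and 2 fell (8.64% and 4.13% of all genes), shares of 12.8% and 4.26% of the members. The count of lower members was 1 without 4-cell replicate 2. The widest change came from the 8-cell to the 16-cell embryo, where 22 members rose and 2 fell (14.8% and 16.3% of all genes), with a median difference of 1.10 against 0.00. Core subunits made up 12 of the 22, from a core of 14 genes, and cap subunits 9, from a cap of 17. From the 16-cell embryo to the blastocyst 8 rose and 3 fell (18.2% and 13.1% of all genes). In this fit the share of members that rose, 17%, was near the background. A fit that also held the replicate number of the pools (the replicate block) called 11 higher. The share of all genes in that fit is not given. With library medians set equal, which moves the median of all genes by -0.36, the counts were 2 higher and 4 lower. Of 17138 genes, 2408 were then called higher and 2874 lower. Without blastocyst replicate 3 the member counts were 5 and 1, and without 16-cell replicate 1 the lower count was 1. From GV oocyte to blastocyst 18 members were higher and 3 lower (25.6% and 20.4% of all genes), with a median difference of 0.82 against 0.26. Comparisons that share a stage also share its libraries and are not independent. Fitted on the libraries of the compared stages alone, 1 of 5 calls held for 4-cell against MII (PSMB1) and 2 of 8 for 8-cell against 4-cell (PSMB5, PSMD3). For 16-cell against 8-cell 9 of 24 held (PSMB1, PSMB6, PSMA7, PSMA3, PSMB3, PSMD6, PSMA1, PSMD3, PSMC2), and for blastocyst against 16-cell 3 of 11 (PSMG2, PSME4, PSMD9). That fit kept 20 of 21 calls for blastocyst against GV, without PSMB1, and 6 of 8 for 4-cell against GV, without PSMD2 and PSMB3. Member calls between consecutive embryo stages that are not named here were lost in that fit. The loss is not repeated beside each of them below.

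The read shares of core and cap both fell to the 8-cell stage and rose at the 16-cell stage, without keeping a fixed ratio. A share sums the reads of its genes, so abundant genes such as PSMB5 in the 16-cell pools weigh most. The 14 core genes took 0.249 ± 0.0324% of the reads of GV pools (SD, n = 3 here and throughout), 0.196 ± 0.0194% at MII, 0.113 ± 0.0188% in 4-cell and 0.107 ± 0.0204% at the 8-cell stage, then 0.320 ± 0.0429% in the 16-cell pools and 0.314 ± 0.0479% in blastocysts. The 17 cap genes took 0.169 ± 0.0138%, 0.154 ± 0.0229%, 0.147 ± 0.00609%, 0.110 ± 0.01%, 0.177 ± 0.00953% and 0.281 ± 0.0112% at the same stages. Core reads over cap reads were 1.47, 1.25 and 1.69 in the GV pools, 0.838, 0.808 and 0.655 in the 4-cell pools, 1.87, 1.94 and 1.61 in the 16-cell pools and 1.24, 1.11 and 0.990 in the blastocysts. The 4-cell pools thus lay below every GV, MII, 16-cell and blastocyst pool, and the 16-cell pools above every 4-cell, 8-cell and blastocyst pool, with an overlap between 16-cell and GV pools at 1.61 and 1.69. These ratios are descriptions without a test.

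**Figure D2:**
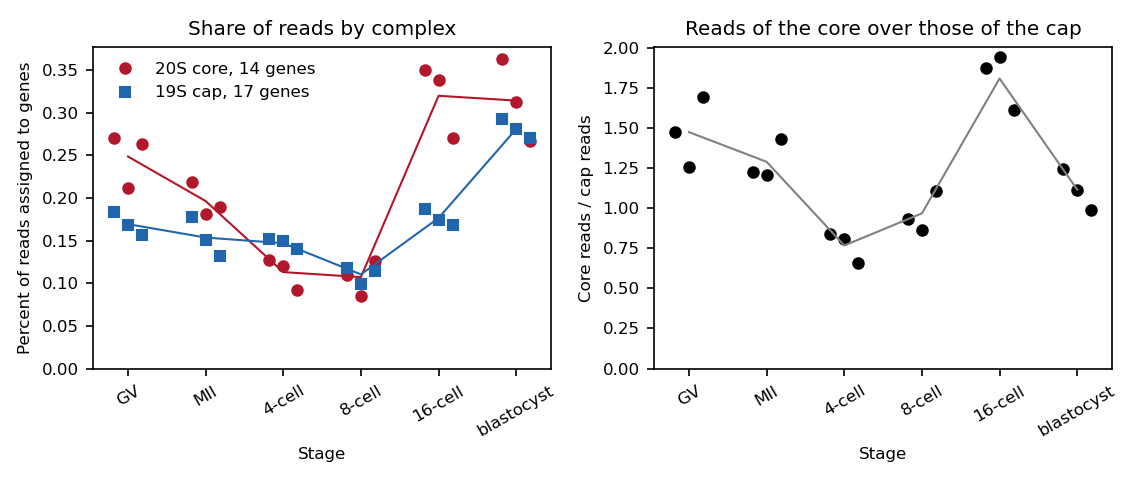
Left, percent of reads assigned to genes (y axis) taken by the 14 constitutive 20S core genes (circles) and the 17 19S cap genes (squares) in each pool by stage; lines join stage means. Right, core reads over cap reads in each pool, with a line through the stage means from 1.47 in GV oocytes to 0.767 in the 4-cell pools, 1.81 in the 16-cell pools and 1.12 in blastocysts.

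Among the alpha subunits, PSMA1 and PSMA2 were barely read in oocytes and 4-cell embryos and abundant from the 16-cell stage. PSMA1 stood at 15.2, 0.706 and 21.3 scaled counts in the GV pools, 20.5, 6.59 and 1.72 at MII, 3.38, 0.564 and 0 in the 4-cell pools (6, 1 and 0 reads), 118, 22.9 and 114 at the 8-cell stage, 2596, 1067 and 1338 in the 16-cell pools and 2687, 1004 and 1010 in blastocysts. The 4-cell, 8-cell and 16-cell pools did not overlap, and the GV, MII and 4-cell pools did. It rose by 4.28 ± 0.83 (SE, adjusted p = 0.00109) from the 4-cell to the 8-cell stage and by 4.41 ± 0.83 (adjusted p = 0.000462) to the 16-cell stage, where its mean was 19.6-fold that of 8-cell embryos. PSMA2, another subunit of the alpha ring, stood at 29.2, 0.764 and 24.9 at the 8-cell stage and 358, 311 and 258 in the 16-cell pools. Its rise was 4.32 ± 0.91 (adjusted p = 0.00119), and its 4-cell pools held 1.13, 3.39 and 0. Whether reads of these genes were also assigned to close copies elsewhere in the genome was not tested.

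The other alpha subunits started from a high level in the oocyte. PSMA3 went from 904, 1054 and 1699 at MII to 447, 248 and 377 in the 4-cell pools, a fall of 1.75 ± 0.34 on the log2-like scale (adjusted p = 0.0117), with no overlap. That call was lost without MII replicate 3 (adjusted p = 0.125) and without 4-cell replicate 2 (0.0862). PSMA7 went from 1864, 1931 and 1978 to 775, 994 and 697, a fall by 1.24 ± 0.29 (adjusted p = 0.0443) that each left-out library took past the threshold (adjusted p from 0.0573 to 0.215). Both were called lower in the 4-cell pools than in GV oocytes, PSMA3 by a difference of -1.93 ± 0.34 (adjusted p = 0.00174) and PSMA7 by -1.44 ± 0.29 (adjusted p = 0.00495). With library medians set equal none of these calls was made: the adjusted p of PSMA3 was 0.121 against MII and 0.0779 against GV, and that of PSMA7 0.257 and 0.151.

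At the 16-cell stage PSMA7 was back at 1674, 1846 and 1496, from 576, 345 and 575 at the 8-cell stage (1.77 ± 0.29, adjusted p = 0.000136). PSMA3 stood at 2254, 1361 and 1637 there, from 301, 413 and 495 (2.11 ± 0.34, adjusted p = 0.000137). In both genes the 16-cell pools lay above every 8-cell pool. PSMA6 rose from 1501 ± 492 to 2970 ± 788 and fell to 1626 ± 705 in blastocysts, both with calls that depend on single libraries: the rise had an adjusted p of 0.116 without 8-cell replicate 2 and 0.0819 without 16-cell replicate 1, and the fall 0.133 without 16-cell replicate 1, 0.151 without blastocyst replicate 2 and 0.101 without blastocyst replicate 3. With library medians set equal the rise had an adjusted p of 0.0921, and with array weights the rise had 0.172 and the fall 0.0894. PSMA4 and PSMA5 were not called at the 16-cell stage. PSMA5 was highest at MII, with 3568 ± 781, and PSMA4 stood at 632 ± 263 in the 16-cell pools and 1334 ± 530 in blastocysts, a rise whose pools overlapped and whose adjusted p of 0.0306 went to 0.157 without 16-cell replicate 2 or blastocyst replicate 1 and to 0.06 without blastocyst replicate 3. It was 0.243 with library medians set equal and 0.0621 with array weights.

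The beta subunits showed the dip most plainly in PSMB1, a ring subunit without a cutting site of its own. Its pools held 3172, 2138 and 3270 in GV oocytes, 2616, 1849 and 2846 at MII, 460, 621 and 443 in the 4-cell pools, 366, 450 and 556 at the 8-cell stage, 3200, 2420 and 2259 in the 16-cell pools and 1267, 2282 and 1411 in blastocysts. No 4-cell or 8-cell pool reached any pool of another stage. PSMB1 fell by 2.25 ± 0.30 from MII to 4-cell embryos (adjusted p = 0.000315), and this call held without each library in turn. It rose by 2.52 ± 0.30 from 8-cell to 16-cell embryos (adjusted p = 8.66e-06). Blastocysts were lower than GV oocytes by a difference of -0.81 ± 0.30 (adjusted p = 0.0324), with overlapping pools and an adjusted p of 0.103, 0.111, 0.125 and 0.0981 without GV replicate 1, GV replicate 3, blastocyst replicate 1 and blastocyst replicate 3.

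PSMB5, which carries the chymotrypsin-like site that most proteasome inhibitors bind, turned upward 1 stage earlier. It held 1110, 1048 and 1227 at MII, 439, 361 and 594 in the 4-cell pools, 1821, 1999 and 2771 at the 8-cell stage and 7283, 6534 and 4393 in the 16-cell pools, with no overlap between neighbouring stages in that run. The 8-cell rise was 2.24 ± 0.29 (adjusted p = 1.02e-05), a 4.73-fold higher mean, and the 16-cell rise 1.46 ± 0.29 (adjusted p = 0.000672). The fall before it, by 1.30 ± 0.29 (adjusted p = 0.0305), was lost without any one library but 4-cell replicate 3, with an adjusted p between 0.0946 and 0.172. It had an adjusted p of 0.229 with library medians set equal and 0.0729 by voom. The later fall to 3588 ± 957 in blastocysts was 0.76 ± 0.29 on the log2-like scale (adjusted p = 0.0477). Its pools overlapped, and the adjusted p was 0.161 without 16-cell replicate 1, 0.119 without 16-cell replicate 2, 0.167 without blastocyst replicate 1 and 0.118 without blastocyst replicate 3, and 0.104 with array weights.

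PSMB6, the caspase-like site, held 606, 446 and 417 in GV oocytes, 277, 180 and 198 at MII, 29.3, 73.4 and 49.6 in the 4-cell pools, 68.4, 133 and 169 at the 8-cell stage, 827, 1739 and 809 in the 16-cell pools and 618, 916 and 708 in blastocysts. The GV pools lay 9.65-fold above the 4-cell pools by their means (-3.23 ± 0.44, adjusted p = 9.19e-05) and the 16-cell pools 9.11-fold above the 8-cell pools (3.14 ± 0.44, adjusted p = 3.01e-05). The fall from MII alone, by 2.08 ± 0.44 (adjusted p = 0.0196), was lost without MII replicates 1, 2 or 3 (0.122, 0.0636, 0.0785) and 4-cell replicates 1 or 3 (0.146, 0.0713), and by voom (0.11). PSMB7, the trypsin-like site, kept rising after the 16-cell stage, from 120, 460 and 327 to 945, 905 and 879. That step of 1.77 ± 0.58 (adjusted p = 0.0236) had an adjusted p of 0.134 without 16-cell replicate 1, 0.0649 without blastocyst replicate 1, 0.0629 without blastocyst replicate 2 and 0.0566 without blastocyst replicate 3. It was 0.0515 with no filter, 0.0734 with library medians set equal and 0.0609 with array weights.

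The remaining beta subunits are structural. PSMB3 rose from 216 ± 71.5 in 8-cell to 902 ± 178 in the 16-cell pools (2.07 ± 0.36, adjusted p = 0.000225) and PSMB2 from 377 ± 70.8 to 1304 ± 672 (1.65 ± 0.38, adjusted p = 0.00243). PSMB4 held 89.1, 2.29 and 157 at the 8-cell stage, where replicate 2 stood far below the others, and 911, 1234 and 579 in the 16-cell pools (4.30 ± 0.79, adjusted p = 0.000395). Fitted on the compared stages alone, that rise had an adjusted p of 0.128. At the blastocyst stage PSMB4 held 2434, 1978 and 1504, above every pool of an earlier stage. PSMB3 was called lower in the 4-cell pools than in GV oocytes (-1.44 ± 0.36, adjusted p = 0.0266), with an adjusted p of 0.0974 without GV replicate 1, 0.134 without GV replicate 3, 0.0665 without 4-cell replicate 1 and 0.166 without 4-cell replicate 3. It was 0.22 with library medians set equal and 0.0525 by voom. All 7 beta genes rose at the 16-cell stage and 5 of 7 alpha genes did, against 14.8% of all genes. The rise of PSMB7 there had overlapping pools and an adjusted p of 0.00897, or 0.0561 without 8-cell replicate 1. Fitted on the compared stages alone, it had 0.218.

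**Figure D3:**
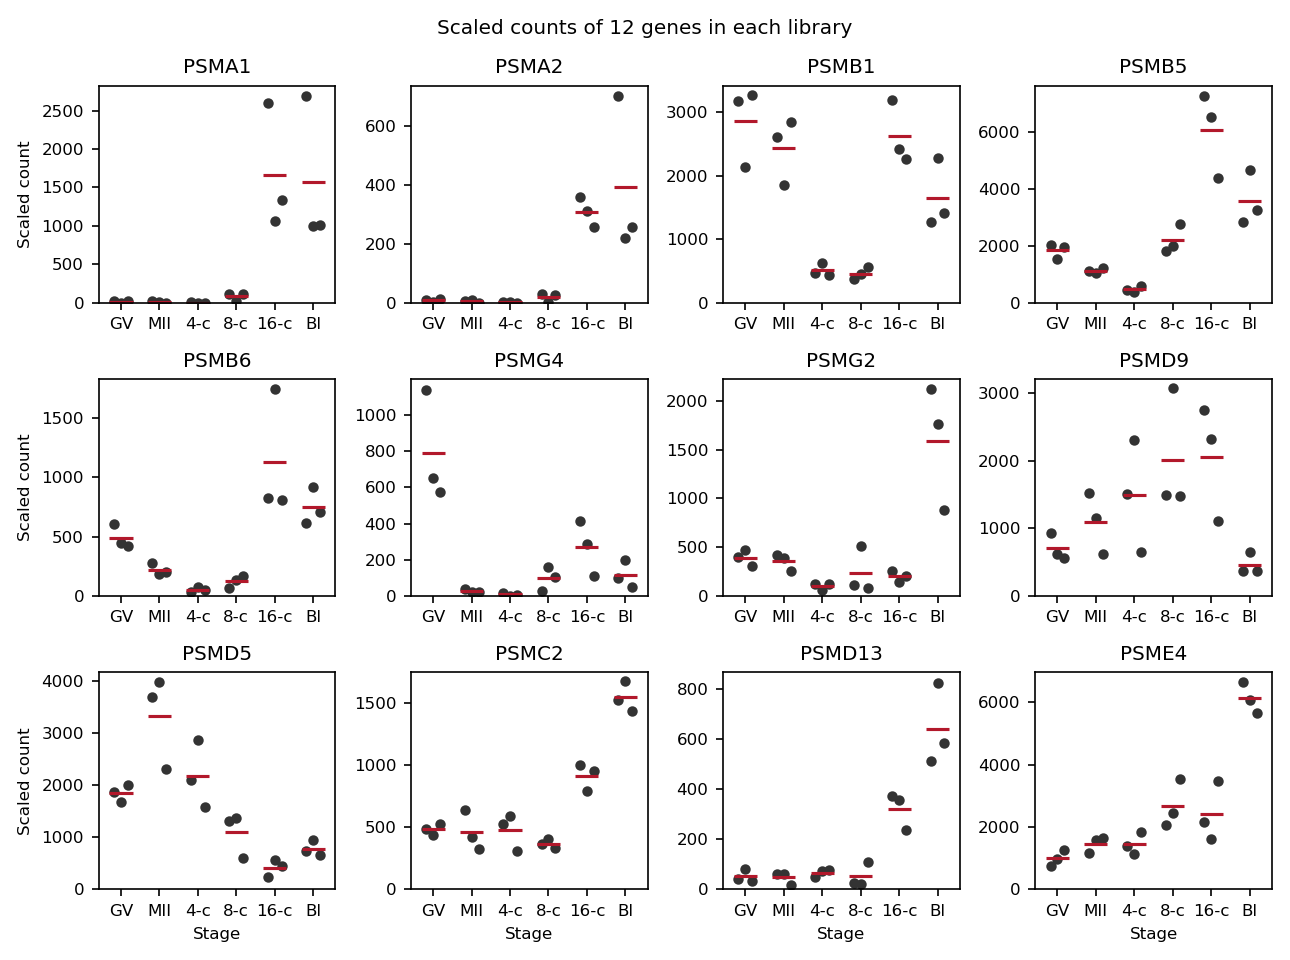
Scaled counts (linear y axes, each with its own range) of 12 proteasome genes in each of the 18 pools by stage (4-c, 8-c, 16-c for cell numbers, Bl for blastocyst); points are pools and bars stage means of 3. PSMA1 and PSMA2 lie near 0 before the 8-cell stage, PSMB1 is at 366 to 621 in the 4-cell and 8-cell pools and at 1267 or more in the others, PSMG4 drops after the GV stage, and PSME4 is highest in the 3 blastocyst pools at 6661, 6072 and 5642.

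Cells under interferon exchange the cutting subunits for inducible ones: PSMB8 replaces PSMB5, PSMB9 replaces PSMB6 and PSMB10 replaces PSMB7, which gives the immunoproteasome and alters the peptides offered on MHC class I. The inducible subunits had low counts, at or near the limit of detection in some pools and above it in others. PSMB10 held 12.3, 4.24 and 29.3 in GV oocytes, 0 reads in all 6 pools of 4-cell and 8-cell embryos, and 10.0, 73.4 and 32.9 in blastocysts. PSMB9 held 28.7, 19.7 and 11.6 in blastocysts and at most 22.3 in any other pool. PSMB8 held 0, 250 and 6.78 in blastocysts, so its mean of 85.5 ± 142 rests on replicate 2, and at most 17 elsewhere. The limit that a count of 0 allows, 3 reads, equals 1.69 to 8.47 scaled counts by library and covers counting error only.

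The F test over the 6 stages called PSMB10 (adjusted p = 0.0041) and neither PSMB8 (0.585) nor PSMB9 (0.178). None of the 3 genes was called in any of the 7 comparisons by limma, which with the replicate block called PSMB10 higher in blastocysts than in the 16-cell pools (adjusted p = 0.0468). PSMB10 was also called lower in the 4-cell pools than in GV oocytes by voom, the one such call among the 3. At an unadjusted p under 0.05, limma gave 1 of 4 inducible or thymus-type genes lower from GV to MII, 1 lower from GV to 4-cell embryos and 2 higher from the 16-cell stage to the blastocyst. Shares of all genes at that threshold are not given. Within each library, PSMB8 lay below PSMB5 by a difference of -6.98 ± 0.80 in GV oocytes and -7.61 ± 3.14 in blastocysts. PSMB9 minus PSMB6 was -5.97 ± 1.53 and -5.01 ± 0.67, and PSMB10 minus PSMB7 -4.30 ± 1.03 and -4.74 ± 1.28. Exact two-sided permutation tests of the change in these differences from GV to blastocyst gave p = 0.8, 0.5 and 0.8, adjusted over the 3 pairs 0.8 each, in a design whose smallest p is 0.10. No result could therefore fall under 0.05, and the tests do not decide whether the differences changed. The changes were -0.63, 0.96 and -0.43 with ranges without single libraries of -2.34 to 0.751, 0.089 to 1.51 and -1.03 to 0.242. PSMB11, the beta subunit of the thymic cortex, held at most 9.68 in any pool.

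**Figure D4:**
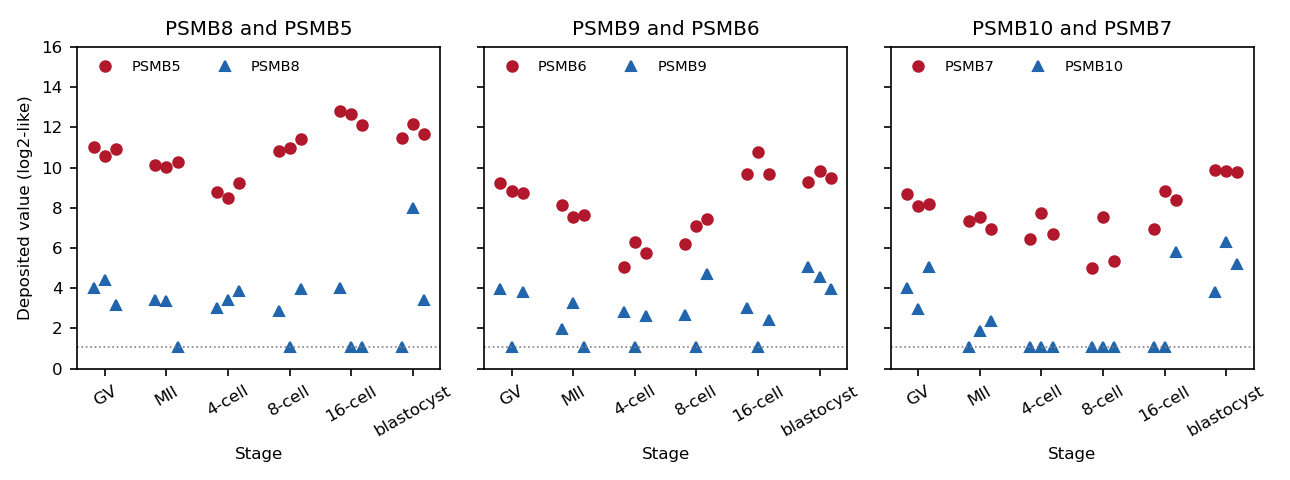
Deposited log2-like values (y axis) of each inducible subunit (triangles) and its constitutive counterpart (circles) in the 18 pools by stage; the dotted line is the value of 0 reads, 1.10. In each library of every pair the triangle lies below the circle, and PSMB10 sits on the line in all 4-cell and 8-cell pools; the genes were not corrected for length.

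The cap opens with a ring of 6 ATPases at its base. No ATPase was called lower in any comparison, and from MII to the 4-cell embryo the median difference of the 6 was 0.01, where that of the 14 core genes was -1.03. All 6 had their highest mean in blastocysts. Of all genes, 52% had theirs in blastocysts or the 16-cell pools. Against GV oocytes, 5 of 6 were called higher in blastocysts (25.6% of all genes), or 4 with library medians set equal. PSMC2, an ATPase of the ring, held 482, 441 and 527 in GV oocytes, 366, 404 and 333 at the 8-cell stage, 1002, 793 and 954 in the 16-cell pools and 1531, 1682 and 1439 in blastocysts. Its blastocyst pools lay above all others and 1.67 ± 0.32 above GV oocytes (adjusted p = 0.000207), and its 16-cell rise was 1.30 ± 0.32 (adjusted p = 0.00385).

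PSMC5 went from 276, 126 and 197 in GV oocytes to 962, 1464 and 1034 in blastocysts (2.55 ± 0.48, adjusted p = 0.000194). Its step at the 16-cell stage (adjusted p = 0.0334) was lost without 8-cell replicate 2 (0.205) or 16-cell replicate 1 (0.127), with no filter (0.0564), with library medians set equal (0.0529) and with array weights (0.278). PSMC6 rose earliest, from 50.1, 57.0 and 106 in 4-cell to 289, 163 and 462 at the 8-cell stage (1.99 ± 0.55, adjusted p = 0.0185), a call lost without 4-cell replicate 1 (0.0845), 4-cell replicate 2 (0.0688) or 8-cell replicate 3 (0.0997) and with library medians set equal (0.0568). PSMC3 rose at the 16-cell stage from 51.7 ± 36.9 to 210 ± 78.5 (adjusted p = 0.00894, but 0.0579 without 8-cell replicate 1). PSMC4 rose only in the last step among consecutive stages, from 713 ± 277 to 1959 ± 586 (2.75-fold by the means, adjusted p = 0.00679, or 0.0563 with library medians set equal). Its difference between blastocyst and GV oocyte, 1.02 ± 0.40 (adjusted p = 0.0422), was lost without GV replicate 2 (0.0783), GV replicate 3 (0.156), blastocyst replicate 1 (0.085) or blastocyst replicate 2 (0.167), with library medians set equal (0.185) and with no filter (0.0768). PSMC1 was not called in any of these comparisons and ran from 140 ± 42.6 at MII to 474 ± 78.5 in blastocysts.

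The scaffold subunits of the base, PSMD2 and PSMD1, moved apart from each other between 4-cell and 8-cell embryos. PSMD2, a scaffold and docking site for ubiquitin receptors, held 248, 175 and 188 in 4-cell, 473, 1262 and 564 in 8-cell and 1658, 1728 and 1462 in the 16-cell pools, with no overlap. It rose by 1.77 ± 0.34 (adjusted p = 0.00108) and then by 1.21 ± 0.34 (adjusted p = 0.0105, but 0.0657 without 8-cell replicate 1 and 0.052 with library medians set equal). Fitted on the compared stages alone, the rises had an adjusted p of 0.0827 and 0.143. PSMD1, the other large scaffold, fell in the first of these steps, from 2430, 2978 and 2588 to 1784, 612 and 1131 (-1.30 ± 0.34, adjusted p = 0.0125), a call lost without 4-cell replicate 2 (0.0554) or 8-cell replicate 2 (0.065). PSMD2 was also the one cap gene called lower in the 4-cell pools than in GV oocytes (-1.54 ± 0.34, adjusted p = 0.0119), with an adjusted p of 0.0524 without GV replicate 1, 0.0837 without GV replicate 2, 0.0585 without 4-cell replicate 2 and 0.0553 without 4-cell replicate 3. The adjusted p of that fall was 0.189 with library medians set equal. PSMD4, a ubiquitin receptor, was not called by the F test (adjusted p = 0.427) and ranged from a mean of 92.0 to one of 213.

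The lid holds PSMD14, the enzyme that cuts ubiquitin chains off the substrate, in a frame of other subunits. PSMD14 stood at 484 ± 63.6 in 4-cell and 309 ± 72.8 at the 8-cell stage, 921 ± 428 in the 16-cell pools and 1598 ± 414 in blastocysts, and rose at the 16-cell stage by 1.45 ± 0.36 (adjusted p = 0.00413). PSMD3 was low in all 3 pools of the 8-cell stage: it held 689, 599 and 692 in the 4-cell pools, 157, 153 and 168 at the 8-cell stage and 593, 1135 and 548 in the 16-cell pools. It fell by 2.02 ± 0.43 (adjusted p = 0.00243) and rose by 2.14 ± 0.43 (adjusted p = 0.000776). PSMD8 went the opposite way in the first of these steps, from 27.6, 56.4 and 49.6 to 119, 258 and 206 (2.01 ± 0.47, adjusted p = 0.00529).

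PSMD13 held at most 108 in any pool up to the 8-cell stage, 371, 356 and 236 in the 16-cell pools and 509, 824 and 584 in blastocysts, which lay 3.60 ± 0.61 above GV oocytes (adjusted p = 6.16e-05, 12.5-fold by the means). PSMD6 rose at the 16-cell stage from 461, 467 and 499 to 2175, 1553 and 1104 (1.70 ± 0.30, adjusted p = 0.000242). PSMD7, the inactive partner of PSMD14, rose there from 394, 50.4 and 308 to 1464, 751 and 586 (2.20 ± 0.53, adjusted p = 0.00362). The adjusted p of PSMD7 was 0.0536 with array weights and 0.198 fitted on the compared stages alone. In this step 5 of 8 lid genes were called higher (14.8% of all genes), 2 were not called, and PSMD11 was called lower (16.3% of all genes). It fell from 918, 1578 and 1079 to 865, 294 and 351 (-1.37 ± 0.36, adjusted p = 0.00618), and returned to 1304, 1010 and 1131 in blastocysts (1.35 ± 0.36, adjusted p = 0.00625, or 0.11 with library medians set equal). PSMD12 was not called between consecutive stages, except from the 16-cell stage to the blastocyst with the replicate block (adjusted p = 0.0155), and ran from 977 ± 306 in the 16-cell pools to 2651 ± 265 at MII.

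Activators can bind the core in place of the cap. PSME4, the large activator of the nucleus that is known from DNA repair and from sperm formation, held 739, 955 and 1264 in GV oocytes, 1168, 1576 and 1631 at MII, 1389, 1134 and 1836 in 4-cell, 2047, 2437 and 3536 in 8-cell and 2146, 1609 and 3465 in the 16-cell pools, and 6661, 6072 and 5642 in blastocysts. The blastocysts lay above all other pools, 2.66 ± 0.31 above GV oocytes (adjusted p = 6.25e-07, 6.21-fold by the means) and 1.42 ± 0.31 above 16-cell embryos (adjusted p = 0.00138). No other member had a smaller adjusted p in the comparison of blastocyst with GV oocyte. PSME1 and PSME2 form the interferon-inducible activator ring. PSME1 rose from 194, 18.3 and 199 in 8-cell to 273, 294 and 635 in the 16-cell pools (1.96 ± 0.71, adjusted p = 0.0406). The adjusted p was 0.286 without 8-cell replicate 2, 0.0545 without 16-cell replicate 2 and 0.148 without 16-cell replicate 3. It was 0.0924 with no filter, 0.24 with array weights and 0.282 fitted on the compared stages alone.

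PSME1 reached 832, 753 and 544 in blastocysts, 2.24 ± 0.71 above GV oocytes (adjusted p = 0.0134, or 0.0526 without GV replicate 2). PSME2 rose from 1.12, 33.9 and 42.7 in the 16-cell pools to 207, 117 and 64.9 in blastocysts (2.61 ± 0.93, adjusted p = 0.0375), a call lost without 16-cell replicate 1 (0.217), blastocyst replicate 1 (0.143) or blastocyst replicate 2 (0.0899), with no filter (0.0662), with library medians set equal (0.0555) and with array weights (0.187). PSME3, the nuclear activator, has no row of that name. The row LOC100336105, which the RefSeq gene table pairs with PSME3 by gene number, held 106, 189 and 158 at the 8-cell stage, 2518, 647 and 328 in the 16-cell pools and 988, 735 and 1340 in blastocysts (16-cell against 8-cell 2.44 ± 0.55, adjusted p = 0.00209). Fitted on the compared stages alone, that rise had an adjusted p of 0.138. PSMF1, an inhibitor that binds the core, ranged from 73.1 ± 74.2 in 8-cell to 139 ± 92.5 in the 16-cell pools and was not called by the F test (adjusted p = 0.537).

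The chaperones that build the core held the one member called at oocyte maturation. PSMG4, which with PSMG3 steadies the forming alpha ring, held 1141, 650 and 573 in GV oocytes, 35.9, 21.7 and 22.3 at MII, 15.8, 1.13 and 6.53 in the 4-cell pools, 25.7, 162 and 104 at the 8-cell stage, 413, 288 and 108 in the 16-cell pools and 96.6, 199 and 51.3 in blastocysts. Every GV pool lay above every later pool, and the 4-cell pools below all others. The fall at maturation was 4.65 ± 0.73 on the log2-like scale (adjusted p = 0.00339), 29.6-fold by the means, and the call held without each library in turn. PSMG4 rose again by 3.07 ± 0.73 from 4-cell to 8-cell embryos (adjusted p = 0.00616, or 0.153 fitted on the compared stages alone). Its blastocyst pools still lay below GV oocytes by a difference of -2.86 ± 0.73 (adjusted p = 0.00289). Beside this fall, summed cumulus and granulosa cell markers (15 genes, of which 9 to 13 had reads) ran from 3152 to 4265 in GV and from 3303 to 4540 in MII pools, and limma called 0 of them between these stages (0 higher and 2 lower at an unadjusted p under 0.05, 0 by voom). The sum still ran from 2872 to 3748 in the 4-cell pools. It rested mostly on STAR (1665 ± 89.5 in GV oocytes and 1430 ± 13.4 at MII), HAS2 (729 ± 238 and 1082 ± 91.8) and VCAN (848 ± 278 and 955 ± 636). Of 14 markers tested, 5 differed upward and 9 downward. FSHR had a mean of 32.6 ± 53.7 in GV oocytes and 0 at MII, and INHA 32.2 ± 51.0 and 0.858 ± 1.49. FST had 41.3 ± 66.5 and 0.572 ± 0.991, and INHBA 43.8 ± 49.5 and 14.4 ± 12.2. In GV oocytes the SD of FSHR, INHA, FST and INHBA exceeded the mean. FOXL2 had 0 at both stages. Their part in the result was not tested.

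PSMG2, which with PSMG1 starts the alpha ring, was not called between consecutive stages before the last step. It held 391 ± 78.1 in GV oocytes, 260, 147 and 202 in the 16-cell pools and 2122, 1768 and 878 in blastocysts, above every other pool, a rise of 2.89 ± 0.54 (adjusted p = 0.000318), 7.83-fold by the means. Its partner PSMG1 was highest at MII, with 2850 ± 21.1, and held 1471 ± 646 in the 16-cell pools and 1428 ± 475 in blastocysts, with no call between consecutive stages. PSMG3 held 50.5 ± 10.2 in GV oocytes and 136 ± 89.9 in blastocysts and was not called by the F test (adjusted p = 0.11).

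Of the 3 chaperones of the cap, 1 had its highest mean at MII, 1 at the 16-cell stage and 1 in blastocysts. PSMD5, which holds the base ATPases during assembly, peaked at MII with 3691, 3976 and 2304 and went down to 1318, 1359 and 597 in 8-cell and 237, 553 and 434 in the 16-cell pools. The last of these steps, -1.40 ± 0.37 (adjusted p = 0.00611), was one of the 2 falls at the 16-cell stage, and blastocysts remained below GV oocytes (-1.26 ± 0.37, adjusted p = 0.00739). Its small rise to 735, 940 and 646 in blastocysts (0.98 ± 0.37, adjusted p = 0.0454) was lost without 5 of the 6 libraries, with an adjusted p from 0.0536 to 0.222, and with no filter (0.0764), library medians set equal (0.243), array weights (0.177) and voom (0.106). PSMD9 held 2748, 2318 and 1112 in the 16-cell pools and 363, 645 and 375 in blastocysts, a fall by 2.10 ± 0.46 (adjusted p = 0.00144), 4.47-fold by the means and without overlap. PSMD10, also known as gankyrin, was higher in blastocysts (1289, 448 and 431) than in GV oocytes (186, 91.1 and 299) by 1.85 ± 0.52 (adjusted p = 0.00615), or with an adjusted p of 0.0544 without blastocyst replicate 1. From the 16-cell stage to the blastocyst it was called with the replicate block alone (adjusted p = 0.0439).

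The testis-type alpha subunit PSMA8, known from meiosis in spermatocytes, was read in small numbers throughout, with means from 26.8 ± 31.9 in the 16-cell pools to 95.7 ± 92.1 at MII and an F test adjusted p of 0.625. PSMC3IP had its highest mean in the 4-cell pools, 72.4 ± 20.8, and its lowest, 19.4 ± 12.2, in the 16-cell pools (F test adjusted p = 0.207).

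Other genes of the system were counted from lists of their own. Of 10 further parts and assembly factors of the proteasome, 0 rose and 1 fell at the 8-cell stage (8.64% and 4.13% of all genes, as above), 2 rose and 0 fell at the 16-cell stage (14.8% and 16.3%) and 4 rose and 1 fell in the blastocyst (18.2% and 13.1%). The last count was 2 and 1 with library medians set equal. ADRM1, a ubiquitin receptor of the cap, fell from 356 to 133 between 4-cell and 8-cell means (-1.78 ± 0.58, adjusted p = 0.0484) and rose to 746 in the 16-cell pools (2.84 ± 0.58, adjusted p = 0.000981). The fall had an adjusted p of 0.123 with no filter, 0.154 and 0.178 without 4-cell replicates 1 or 2, and 0.0652 and 0.243 without 8-cell replicates 1 or 2. Fitted on the compared stages alone, the fall had an adjusted p of 0.317 and the rise 0.123. POMP, a chaperone of beta ring assembly, rose from 1123 in the 16-cell pools to 2473 in blastocysts (1.01 ± 0.33, adjusted p = 0.022). That call was lost with library medians set equal (0.251), with array weights (0.12), without 16-cell replicate 1 (0.0591) and without blastocyst replicate 1 (0.162). It was also lost in the fit on the compared stages alone (0.156). UCHL5, which trims ubiquitin at the cap, rose in the same step from 193 to 938 (2.26 ± 0.43, adjusted p = 0.000405). AKIRIN2, which brings assembled proteasomes into the nucleus, had the steepest fall of the list: its mean went from 8015 to 821 in that step (-3.15 ± 0.34, adjusted p = 4.84e-07).

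Of 9 genes that control proteasome transcription, 2 rose and 0 fell from 4-cell to 8-cell embryos (8.64% and 4.13% of all genes), 1 rose and 1 fell at the 16-cell stage (14.8% and 16.3%) and 1 rose and 3 fell in the blastocyst (18.2% and 13.1%). With library medians set equal the counts were 1 and 0 at the 8-cell stage, as by voom, and 0 and 4 in the blastocyst. DDI2, the protease that frees the factor NFE2L1, went from 205 to 979 (2.20 ± 0.40, adjusted p = 0.000599), then to 3200 (1.70 ± 0.40, adjusted p = 0.00301), and fell to 1069 in blastocysts (-1.52 ± 0.40, adjusted p = 0.00575). NGLY1, which strips sugars from the same factor, fell from 7236 in 8-cell to 2570 in the 16-cell pools (-1.55 ± 0.28, adjusted p = 0.000314) and to 1048 in blastocysts (-1.23 ± 0.28, adjusted p = 0.00181). Fitted on the compared stages alone, the 16-cell rise of DDI2 had an adjusted p of 0.0765. The falls of NGLY1 then had 0.0632 at the 16-cell stage and 0.0572 in blastocysts. Both genes act on 1 factor and moved in opposite directions at the 16-cell stage.

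Of 10 genes that deliver substrates, 1 fell at maturation (0.613% of all genes), 1 rose at the 8-cell stage (8.64%), 3 rose and 1 fell at the 16-cell stage (14.8% and 16.3%) and 2 rose and 1 fell in the blastocyst (18.2% and 13.1%), or 1 and 1 with library medians set equal. VCP, the unfolding ATPase upstream of the proteasome, rose from 346 to 954 (1.49 ± 0.31, adjusted p = 0.00201) and to 1883 (0.97 ± 0.31, adjusted p = 0.0206). The second rise of VCP had an adjusted p of 0.0712 with library medians set equal, 0.114 with array weights and 0.0556 with the compared stages alone. It was 0.064 without 8-cell replicate 2 and 0.0714 without 16-cell replicate 3. The VCP cofactor gene UFD1L fell from 446 in GV to 57.7 in MII oocytes (-2.84 ± 0.54, adjusted p = 0.0109), a call lost without GV replicate 1 (0.117), MII replicate 2 (0.075) or MII replicate 3 (0.0551). It rose from 55.3 in 8-cell to 456 in the 16-cell pools (3.16 ± 0.54, adjusted p = 0.000199). Fitted on the compared stages alone, the fall had an adjusted p of 0.0682 and the rise 0.0564. Of 6 genes for ubiquitin and its activation, 1 fell at maturation (0.613% of all genes), 2 rose and 1 fell at the 8-cell stage (8.64% and 4.13%), 3 rose and 0 fell at the 16-cell stage (14.8% and 16.3%) and 0 rose and 1 fell in the blastocyst (18.2% and 13.1%). With library medians set equal or by voom, 0 of the 6 rose at the 8-cell stage. The 3 that rose at the 16-cell stage included RPS27A, which encodes ubiquitin joined to a ribosomal protein, from 2716 to 9771 (1.77 ± 0.43, adjusted p = 0.00345, or 0.0536 with array weights). Fitted on the compared stages alone, that rise had an adjusted p of 0.0922. Ubiquitin genes repeat nearly the same sequence, so the assignment of reads among them is uncertain.

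Of 20 genes for MHC class I presentation and the interferon response, 0 rose and 3 fell at the 8-cell stage (8.64% and 4.13% of all genes), 4 rose and 2 fell at the 16-cell stage (14.8% and 16.3%) and 4 rose and 0 fell in the blastocyst (18.2% and 13.1%). B2M, the light chain of MHC class I, rose from 374 to 1699 (2.15 ± 0.39, adjusted p = 0.000332) and to 4337 (1.22 ± 0.39, adjusted p = 0.0199). The second rise was lost with library medians set equal (0.161), with array weights (0.0751), without 16-cell replicate 3 (0.0947) and without blastocyst replicate 1 (0.157). It was also lost in the fit on the compared stages alone (0.189). CALR, a folding chaperone of the endoplasmic reticulum, fell from 276 in the 4-cell pools to 72.4 at the 8-cell stage (-2.11 ± 0.47, adjusted p = 0.00418) and then rose to 757 (3.57 ± 0.47, adjusted p = 2.02e-05). Fitted on the compared stages alone, its fall had an adjusted p of 0.186 and its rise 0.0572. The kinase JAK1 of the interferon pathway fell from 1130 to 283 at the 16-cell stage (-2.02 ± 0.30, adjusted p = 6.27e-05). Summed leukocyte markers (5 genes) ran from 3.05 to 62.7 at the 8-cell stage, from 219 to 237 in the 16-cell pools, which were the highest of all, and from 66.8 to 140 in blastocysts. Most of the sum at the 16-cell stage was CD68, a gene of lysosomes, which rose from 28.5 to 221 (3.82 ± 1.06, adjusted p = 0.00955, or 0.0723 without 8-cell replicate 2 and 0.141 with array weights). Fitted on the compared stages alone, the rise of CD68 had an adjusted p of 0.162. PTPRC, the defining leukocyte gene, had means of 0 at the 8-cell stage, 5.57 in the 16-cell pools and 0 in blastocysts. Their part in the changes of this list was not tested.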

How the data were processed

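Values were the deposited table of variance-stabilised, log2-like expression values, 1 column for each of 18 libraries. Per the submitters' processing notes, CASAVA 1.6, TopHat2 2.0.3, HTSeq and DESeq were used with build UMD3.1. What each did, the annotation and the treatment of multi-mapping reads: not given in the sources used here. Per the labels' protocols, cDNA was primed with random and poly(A) primers and amplified without strand marking, so overlapping genes cannot be told apart and reads are not molecules. The lowest deposited log2 value, 1.10, is that of 0 reads. Inverting the transformation gave whole reads for all 390024 values (tolerance 1e-08), and median-of-ratios factors gave scaled counts.

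The test was limma 3.58.1 (R 4.3.3) on the deposited values, with 6 stage means over 18 libraries, empirical Bayes with a trend, and Benjamini-Hochberg adjustment over 17138 genes (1 or more reads in 3 or more libraries). All 48 genes passed. The comparison of 4-cell with GV was added after the data were seen. The code was tested on simulated data. Members and lists were chosen with earlier results of these data known. Every member could be named; full statistics went first to the called genes with the smallest adjusted p, and of other lists to at most 3 called genes per comparison. IFNT2, LIN28A and BAG6 were not analysed here. One gene of the ubiquitin list is not reported here. RefSeq names came from the ARS-UCD2.0 table. Same-numbered pools of 16-cell embryos and blastocysts deviated together (correlations 0.113, 0.134 and 0.108, each above the 0.1 taken as pairing), and all 11 calls kept an adjusted p under 0.05 with the replicate block.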

Additional observations from a re-analysis of the deposited data

How the results depend on the processing

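Calls were recomputed without a filter, with a stricter filter, with library medians set equal, with array weights, with voom on recovered reads, with the replicate block, with only the stages compared and without each library. No called member changed sign under any of these. Shares of all genes beside counts are those of the main fit. They are not given at an unadjusted p or in other settings. Over 17138 genes, medians set equal called 22 higher and 58 lower (MII against GV), 12 and 73 (4-cell against MII) and 120 and 246 (4-cell against GV). It called 1205 and 1016 (8-cell against 4-cell), 2210 and 2896 (16-cell against 8-cell), 2408 and 2874 (blastocyst against 16-cell) and 3709 and 3961 (blastocyst against GV). Setting medians equal moved the median of all genes by 0.32 (MII against GV), 0.12 (4-cell against MII), -0.24 (8-cell against 4-cell), -0.12 (16-cell against 8-cell), -0.36 (blastocyst against 16-cell), -0.28 (blastocyst against GV) and 0.44 (4-cell against GV); it left 2 lower members of 5 for 4-cell against MII, 2 higher of 8 for blastocyst against 16-cell and 4 lower of 8 for 4-cell against GV. Array weights gave 2 higher and 5 lower for MII against GV, 1 higher and 10 lower for 4-cell against MII, 5 lower for 8-cell against 4-cell, 4 higher and 1 lower for blastocyst against 16-cell and 14 lower for 4-cell against GV. Voom gave 3 lower for 4-cell against MII and 4 lower for 8-cell against 4-cell, as did the stricter filter with 4. Fits of only 2 stages have fewer degrees of freedom and gave 1 lower for 4-cell against MII, 1 higher and 1 lower for 8-cell against 4-cell, 9 higher and 0 lower for 16-cell against 8-cell, and 3 higher and 1 lower for blastocyst against 16-cell. Otherwise the cause was not tested.

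The replicate block gave 4 lower members in place of 2 for 8-cell against 4-cell and 11 higher in place of 8 for blastocyst against 16-cell, and moved no other count by over 1.5 times. Outside 16-cell and blastocyst pools the numbers did not meet the rule for pairing; each library correlated best with its own number for 8-cell against 4-cell and 16-cell against 8-cell. Without single libraries the counts ran, higher and lower, from 0 to 0 and 1 to 1 (MII against GV), 0 to 0 and 1 to 3 (4-cell against MII), 5 to 8 and 1 to 3 (8-cell against 4-cell), 19 to 23 and 2 to 2 (16-cell against 8-cell), 5 to 8 and 1 to 3 (blastocyst against 16-cell), 13 to 17 and 2 to 3 (blastocyst against GV), 0 to 0 and 6 to 7 (4-cell against GV), and 36 to 40 for the F test. Depth limits PSMB8 to PSMB11, PSMA1 and PSMA2 before the 8-cell stage, and PSME2, where single reads weigh most. With 3 pools a stage, a member that was not called is not shown to be stable.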

Other observations

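One 8-cell pool stood apart from the other two of its stage for several members. Replicate 2 of the 8-cell embryos held 2.29 scaled counts of PSMB4 against 89.1 and 157 in the others, 50.4 of PSMD7 against 394 and 308, 0.764 of PSMA2 against 29.2 and 24.9, 22.9 of PSMA1 against 118 and 114, and 18.3 of PSME1 against 194 and 199. The same pool was high for PSMD2 (1262 against 473 and 564), PSMB7 (180 against 27.8 and 36.7), PSMG2 (512 against 108 and 81.4) and PSMD9 (3072 against 1488 and 1475). These genes were picked after their values were seen. The pool had reads for 12393 genes, against 14081 and 14618 in replicates 1 and 3 of its stage and 11970 in 16-cell replicate 1.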
